A study of Homo sapiens with 44 samples.

Results

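Re-expression of normal GAS41 in knockout cells was examined by comparing the RNA of rescued cells with that of the knockout cells they were made from. The comparison rests on 6 of the 44 samples of the series, 3 libraries of the rescue line and 3 of the knockout, chosen by their labels, and it covers all 14505 genes that passed a filter on low reads, out of 18797 in the deposited table. All cells were HCT116, a human colon cancer line that keeps wild-type p53 (p53+/+), and the series asks how GAS41 acts in gene repression. The GAS41-KO group is the knockout, and the wt rescue group is that knockout with a stable GFP-Flag-GAS41 of normal sequence. Beside them stand 3 libraries of the unedited WT line and 3 of the mut rescue, which is the knockout stably expressing GFP-Flag-GAS41 with both Y74A and W93A (tyrosine 74 and tryptophan 93 to alanine, counted along the protein). No drug treatment is named for these 12 samples. The labels call the 3 libraries of each group biological replicates and do not say how many clones or separate cultures they came from, what promoter drives the transgene, or which part of YEATS4 was disrupted. If the 3 libraries of a group came from a single clone or culture, the p-values below measure only the spread between these samples.

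GAS41, the product of YEATS4, carries a YEATS domain, a fold that binds histone H3 tails acylated on lysine. It is a shared subunit of the TIP60 complex, which acetylates histones, and of the SRCAP complex, which places the histone variant H2A.Z into nucleosomes. In a knockout and rescue design, a gene whose level depends on the deleted protein should move back toward its unedited level when the protein is restored. A move past that level, or a move of a gene that WT and the knockout hold alike, is not such a return.

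Levels are given as normalized reads, meaning reads after scaling each library by its own size factor, and values for replicates 1, 2 and 3 are listed in that order. Changes are differences of means on the deposited variance-stabilized log2 scale, which is close to an ordinary log2 fold for genes of many reads and compresses genes of few: 39.07 normalized reads lie only 1 log2 over a gene with none. A gene is said to rise or fall where limma gave an adjusted p under 0.05 in a fit over all 12 libraries, and folds are ratios of mean normalized reads. Depth lay between 16857982 and 18546135 reads per library. The colon epithelial markers KRT8, KRT18 and KRT19 were abundant in all libraries, but the marker list was not uniform. Of its 11 genes in the table, 7 passed the filter on low reads. VIL1, an intestinal brush border gene, had no read in any wt rescue library. CDH1 and EPCAM were far lower in GAS41-KO (131, 128 and 155, and 932, 898 and 915) than in WT (1418, 1402 and 1436, and 7876, 7187 and 7446). The summed level of 9 blood and immune marker genes was 325 to 400 normalized reads in wt rescue and 229 to 253 in GAS41-KO, with PTPRC, the defining leukocyte gene, at 0 in all wt rescue libraries. Fibroblast markers (4 genes) summed to 222 to 236 in wt rescue against 355 to 441 in GAS41-KO, with COL3A1 at 0 in wt rescue. Endothelial markers (7 genes) summed to at most 34.6 normalized reads in these 6 libraries.

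One library stood apart. Within wt rescue, replicate 1 differed from replicates 2 and 3 with an SD over genes of 0.26 and 0.21 log2, while replicates 2 and 3 differed from each other by 0.11, and pairs of GAS41-KO replicates by 0.09 to 0.10. The mut rescue pairs lay between 0.11 and 0.20. Replicate 1 was at least 0.5 log2 away from replicate 2 for 860 genes and from replicate 3 for 523, and replicates 2 and 3 were that far apart for 1 gene. Replicate 1 lay at least 0.5 log2 above both others for 512 genes and below both for 0. For this reason the counts of the gene lists below are given with all 3 wt rescue libraries and then without replicate 1, or with replicate 1 as the only wt rescue library, or both (the spread then comes from the other groups, and the lone library is assumed to vary like them).

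**Figure D1:**
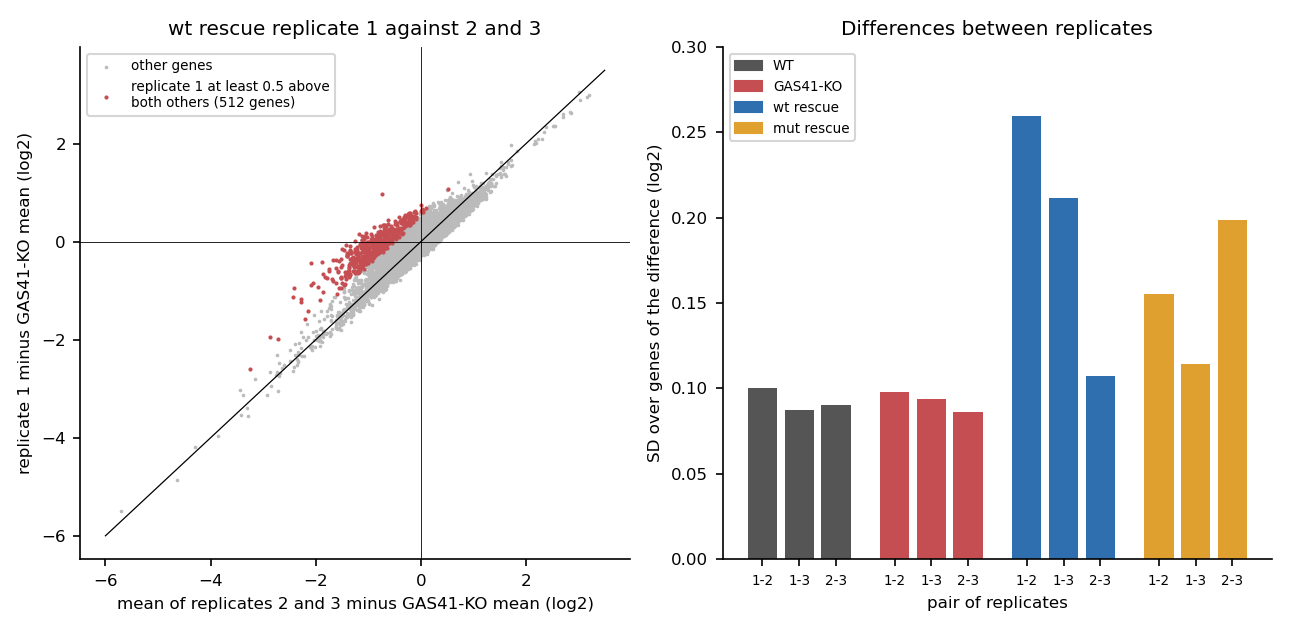
Left, each point is 1 tested gene, with wt rescue replicate 1 minus the GAS41-KO mean on the vertical axis and the mean of replicates 2 and 3 minus the same GAS41-KO mean on the horizontal axis, both in log2; the line marks equal values. The 512 genes in red lie above the line, most of them with a smaller fall in replicate 1. Right, bars give the SD over genes of the difference between each pair of replicates in each group (log2), which was 0.26 and 0.21 for the wt rescue pairs that include replicate 1.

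Promoter sequence is shown for 3 of the gene groups whose members moved in this comparison. RefSeq windows (GRCh38.p14) of 250 bases before to 50 after the gene's start were searched on both strands for GAAANNGAA, a core of the interferon-stimulated response element to which IRF factors bind. It was present in 22 of 32 interferon-stimulated genes with a window, or 68.75%, against 6.201% of 10483 tested genes and 8.292% of all 27305 windows. Among genes that changed by 1 log2 or more, it was in 13.399% of those that fell and 9.402% of those that rose. The 120 bases up to the start are printed 5′ to 3′ on the gene's strand, matches (in either orientation) in capitals, for the interferon-stimulated genes IFI6, IFI27 and IFIT1, which had some of the largest falls, and for ISG15, picked after its values were seen because its 3 matches overlap one another.
IFI6 (chr1:27672193-27672312, minus strand): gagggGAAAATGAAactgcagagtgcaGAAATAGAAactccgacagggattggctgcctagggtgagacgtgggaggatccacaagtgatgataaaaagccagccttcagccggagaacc
IFI27 (chr14:94110616-94110735, plus strand): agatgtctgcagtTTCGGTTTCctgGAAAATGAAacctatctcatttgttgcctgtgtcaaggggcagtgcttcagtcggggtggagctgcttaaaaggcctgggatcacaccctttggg
IFIT1 (chr10:89392503-89392622, plus strand): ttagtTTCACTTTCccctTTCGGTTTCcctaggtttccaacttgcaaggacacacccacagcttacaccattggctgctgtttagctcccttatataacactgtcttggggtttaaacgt
ISG15 (chr1:1013377-1013496, plus strand): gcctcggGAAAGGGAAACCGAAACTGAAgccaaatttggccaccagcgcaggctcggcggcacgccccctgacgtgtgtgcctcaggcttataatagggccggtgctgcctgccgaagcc
For epithelial genes the search used CACCTG, the E-box bound by the repressors ZEB1 and SNAI1, found in 10 of 18 junction and polarity genes with a window (55.556%). It was in 42 of 117 genes that rose by 1 log2 or more (35.897%), in 44 of 306 that fell by as much (14.379%) and in 19.021% of tested genes. AP1M2 is shown because it had the largest rise and holds 3 copies. Junction and polarity genes that did not rise hold the match too, among them DSP (-0.27 log2) and TJP1 (-0.04 log2), beside genes that rose, such as RAB25 (2.18 log2).
AP1M2 (chr19:10587313-10587432, minus strand): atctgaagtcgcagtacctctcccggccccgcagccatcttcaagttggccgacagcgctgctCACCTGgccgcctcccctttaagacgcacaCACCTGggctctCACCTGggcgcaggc
The palindrome CACGTG, the E-box that MYC binds with MAX, was in 9 of 26 ribosome biogenesis genes (34.615%) and in 9.921% of tested genes. UTP20, a factor of ribosomal RNA processing, is shown as 1 of the 9, picked after its values were seen.
UTP20 (chr12:101279985-101280104, plus strand): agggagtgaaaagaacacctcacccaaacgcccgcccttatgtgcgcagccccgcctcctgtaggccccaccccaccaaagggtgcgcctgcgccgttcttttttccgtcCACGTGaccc
AACCGGTT, a grainyhead palindrome searched because GRHL2 was among the largest rises, was in 0 of 18 junction and polarity windows and in 0.153% of tested genes. These are matches of letters and not measured binding sites, the motifs were chosen with results of these data known, and no binding data were analysed here.

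YEATS4, the gene under manipulation, was the first check of the labels. It stood at 386, 337 and 325 normalized reads in GAS41-KO and at 2887, 3500 and 3372 in wt rescue, 9.31-fold higher (log2 change 2.79 ± 0.07 SE, limma adjusted p = 3.32e-14). The 6 libraries do not overlap, and the direction is that of the labels. WT had 625, 608 and 621, so the rescue line held YEATS4 RNA above the unedited level (log2 difference 2.15, adjusted p = 1.63e-11), with reads of the transgene and of the edited gene counted together. The knockout kept YEATS4 RNA, and RNA level does not tell how much working protein either line makes. Mut rescue had 2551, 2358 and 2538, lower than wt rescue by a small margin (0.37 log2, adjusted p = 0.00044).

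Genome-wide, 9571 of 14505 tested genes (66.0%) differed between wt rescue and GAS41-KO, 4783 higher (33.0%) and 4788 lower (33.0%) in the rescue. With so wide a background, a share of called genes near 33.0% in 1 direction says little about a group, and the size of its change carries more. Changes of 1 log2 or more were fewer, 164 up (1.13% of tested genes) and 404 down (2.79%), so large falls outnumbered large rises. The 3 libraries of each group did not overlap for 9973 genes (68.8%). Without replicate 1 there were 10138 calls, with 211 rises and 548 falls of 1 log2 or more, and with replicate 1 alone 7430 calls, with 109 and 327. Of the 568 large changes, 565 were called in the same direction with replicate 1 alone and all 568 without it. The 3 exceptions, named here because they are so few, were BOD1L1, GOLGA4 and TPR. The 568 were themselves chosen with replicate 1 included, so this agreement is in part set by the choice. When library totals were used for scaling in place of size factors, the median of all genes moved from -0.01 to -0.18 log2, and the calls split into 3598 higher and 6101 lower.

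**Figure D2:**
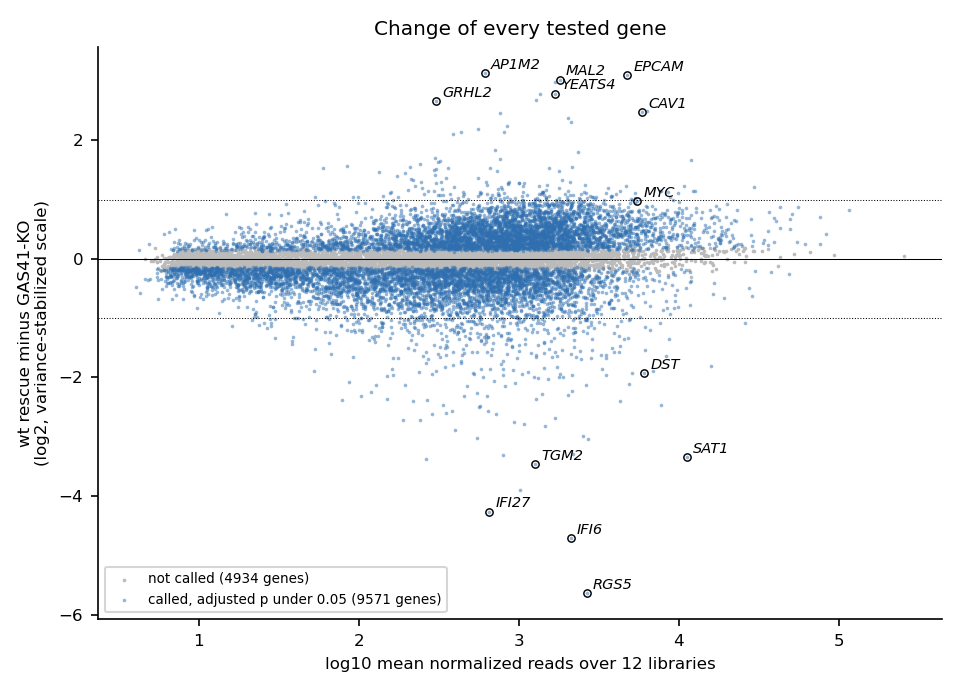
Each point is 1 of 14505 tested genes, placed by the log10 of its mean normalized reads over 12 libraries and by its change in wt rescue over GAS41-KO (log2, variance-stabilized scale); blue points were called and grey points were not, and dotted lines mark 1 log2. The deepest falls (RGS5, IFI6, IFI27) pass -4 log2, while the highest rises (AP1M2, EPCAM, MAL2) stay near 3.

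Epithelial genes stood among the largest rises. By the rule for named genes, the 12 largest rises were AP1M2, EPCAM, MAL2, ST14, YEATS4 itself, CLDN7, ADGRF1, GRHL2, ALDH1A3, CAV1, CDH1 and ESRP1. AP1M2, a clathrin adaptor subunit specific to epithelia that directs proteins to the basolateral surface, went from 30.9, 38.6 and 34 normalized reads in GAS41-KO to 1039, 1334 and 1142 in wt rescue, 33.9-fold higher (3.13 ± 0.07 log2, adjusted p = 9.54e-15). WT had 1196, 1212 and 1135, which the rescue libraries straddle, whereas mut rescue stayed at 62.8, 64.9 and 54.3 (difference between the rescue lines 2.84 log2, adjusted p = 7.6e-14). GRHL2, a grainyhead transcription factor that keeps epithelial genes on, had 3.99, 4.95 and 9.01 normalized reads in the knockout and 453, 528 and 525 in the rescue. It was near silent in all 3 knockout libraries and remained below WT in the rescue (710, 704 and 701, difference -0.40 log2, adjusted p = 0.000207). CDH1, the E-cadherin of adherens junctions, rose from 131, 128 and 155 to 1237, 1438 and 1374, 9.79-fold, with WT at 1418, 1402 and 1436. ESRP1, a splicing factor that sets epithelial isoforms, rose 6.36-fold to 3191, 3297 and 3315. EPCAM, an epithelial adhesion protein, rose 9.85-fold, from 932, 898 and 915 to 8126, 9608 and 9302. For these genes every wt rescue library, replicate 1 included, lay far above every knockout library.

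Of 33 tested genes of junctions, polarity and apical transport, 24 rose and 5 fell, with a median change of 0.80 log2 against -0.01 over all genes. The counts were 24 and 4 both without replicate 1 and with replicate 1 alone (medians 0.83 and 0.74). The tight junction claudin CLDN7 rose 10.1-fold, from 252, 253 and 243 to 2297, 2670 and 2609. MAL2, a membrane protein of apical transport, rose 14.4-fold, from 139, 153 and 156 to 2209, 2139 and 2125, and still stood at less than the 4791, 4579 and 4841 of WT (-1.08 log2, adjusted p = 1.91e-08). ST14, the membrane protease matriptase, rose 11.3-fold to 3066, 3484 and 3336. Claudins did not move together: CLDN2, a leaky-type claudin, fell from 121, 108 and 98.1 to 30.9, 29.2 and 25.8, and the desmosome plaque gene DSP fell by 0.27 log2. CLDN3 fell by 0.23 log2, a call lost with replicate 1 alone, without wt rescue replicate 2, without GAS41-KO replicate 1 and after quantile normalization.

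Among 17 tested epithelial transcription and splicing factors, 9 rose and 5 fell (median 0.27). The counts were 10 and 5 without replicate 1 and 8 and 5 with replicate 1 alone, where the median was 0.13. ELF3, an ETS factor of epithelia, rose 3.78-fold, from 284, 302 and 310 to 1007, 1230 and 1151. In the other direction the gut factors KLF5 and GATA6 fell by 0.79 and 0.36 log2, both with no overlap between groups. FOXA2, an endoderm factor, went from 31.9, 21.8 and 20 normalized reads to 0, 4.17 and 0. Keratins were mixed, with 6 rises and 3 falls among 12 genes (median 0.24), 8 and 3 without replicate 1 and 6 and 3 with it alone. Quantile normalization gave 5 rises and 5 falls, with a median of 0.06. KRT80 rose from 87.8, 91.1 and 105 to 501, 560 and 523, which is also far over the 102, 103 and 86.3 of WT, while KRT23 fell 4.53-fold and KRT20, a marker of differentiated colon cells, fell 4.56-fold, to 12.9, 29.2 and 25.8. Related keratin genes share sequence, and how reads that match several genes were counted is not given in the sources used here.

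**Figure D3:**
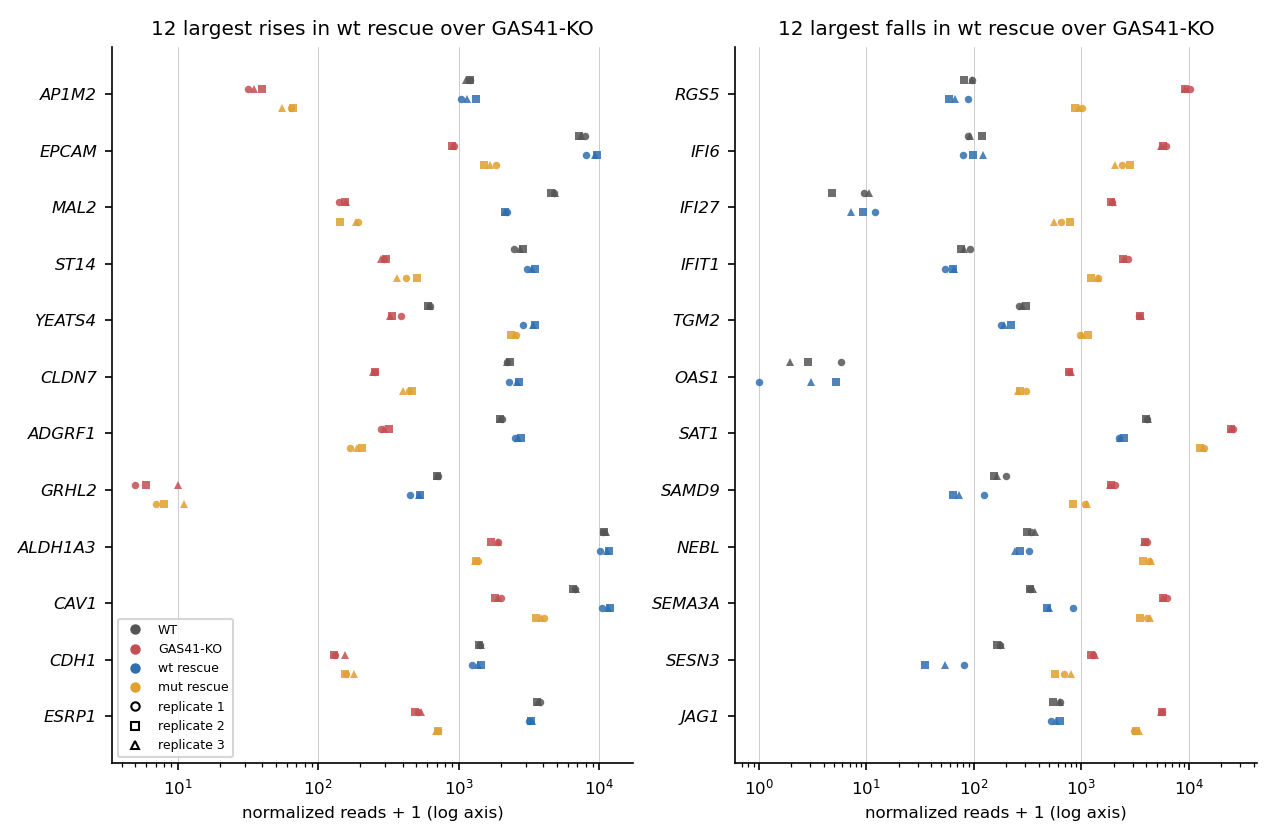
Normalized reads plus 1 (log axis) of the 12 largest rises and 12 largest falls, 1 symbol per library, with colour for the group and shape for the replicate. The blue wt rescue symbols sit beside the grey WT symbols for most genes (CDH1 at 1237 to 1438 against 1402 to 1436) and away from the red GAS41-KO symbols, with the orange mut rescue symbols near or between them, except for YEATS4, where they lie beside wt rescue, and ADGRF1 and ALDH1A3, where they lie below the knockout.

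Mesenchymal genes moved the opposite way. Of 29 tested mesenchymal, matrix and integrin genes 23 fell and 4 rose (median -0.47), with 23 and 4 without replicate 1 and 20 and 4 with replicate 1 alone. ZEB1, a repressor of epithelial genes, fell 21.2-fold, from 767, 740 and 729 to 57.8, 19.8 and 27.9 (-2.59 ± 0.10 log2, adjusted p = 4.82e-12). WT had 77.3, 75.6 and 93.9, above all 3 rescue libraries (-0.50 log2, adjusted p = 0.00118). SNAI1, another such repressor, rose from 120, 114 and 112 to 166, 186 and 192, so the epithelial-to-mesenchymal transition factors went in different directions and the median of the 3 tested changes sign with the scaling (-0.05, or 0.09 after quantile normalization). TGM2, a crosslinking enzyme of the matrix, fell 17.9-fold, from 3427, 3493 and 3603 to 179, 221 and 188. SPARC, a secreted matrix protein, fell from 555, 557 and 605 to 11, 6.26 and 10.3, below the 75.4, 72.7 and 67.4 of WT (-0.85 log2, adjusted p = 5.8e-08). Fibronectin, FN1, fell 5.06-fold to 239, 250 and 237, a level that overlaps WT. The 4 rises included thrombospondin THBS1 (2.48-fold), the integrin subunit ITGB5 (1.88-fold) and the receptor tyrosine kinase AXL. AXL went from 2102, 2261 and 2229 to 3008, 3320 and 3337 while WT had 1607, 1589 and 1663. THBS1 went from 487, 390 and 482 to 1000, 1217 and 1159, with WT beside the knockout at 455, 406 and 408. ITGB5 reached 1712, 1942 and 1880, also over WT (1317, 1370 and 1272).

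CAV1, the coat protein of caveolae, rose past its level in WT. It had 2001, 1803 and 1918 normalized reads in GAS41-KO, 10406, 11898 and 11529 in wt rescue and 6697, 6509 and 6819 in WT (wt rescue over WT 0.74 log2, adjusted p = 1.63e-06). Against WT, 7267 tested genes (50.1%) differed in wt rescue, and with replicate 1 as the only rescue library 2328 did, a setting that also cuts the group to 1 library. ADGRF1, an adhesion G protein-coupled receptor, rose from 279, 318 and 295 to 2522, 2786 and 2645, and ALDH1A3, which makes retinoic acid, from 1916, 1707 and 1919 to 10163, 11673 and 11444. For both, mut rescue lay below the knockout's own level (169, 204 and 189 for ADGRF1, and 1381, 1335 and 1298 for ALDH1A3).

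Interferon-stimulated genes held several of the deepest falls. All 42 tested members of the list fell and none rose, with a median of -1.71 log2 and no overlap between groups for any of the 42. The counts were 42 without replicate 1 and 41 with replicate 1 alone, with medians of -1.72 and -1.79. IFI6, a mitochondrial interferon-induced protein, went from 6089, 5766 and 5545 normalized reads to 78.7, 98 and 121, 58.5-fold lower (-4.71 ± 0.10 log2, adjusted p = 5.2e-15). WT had 86.9, 117 and 90.1, within the range of the rescue (adjusted p = 0.968). IFI27 went from 1940, 1888 and 1948 to 11, 8.34 and 6.19. IFIT1, which binds foreign RNA, fell 42.8-fold, from 2737, 2445 and 2496 to 52.8, 62.6 and 64. OAS1, a sensor of double-stranded RNA, went from 766, 759 and 800 to 0, 4.17 and 2.06. SAMD9, an antiviral translation inhibitor, fell 22.4-fold to 123, 63.6 and 72.3, with all 3 below the 199, 154 and 164 of WT. In mut rescue IFI6 was intermediate, at 2376, 2825 and 2056. Of the list, 40 of 42 members were lower in wt rescue than in mut rescue, where 61.1% of all genes differed in either direction. The printed windows of IFI6, IFI27 and IFIT1 each hold 2 matches to the response element. PARP10, an ADP-ribosyltransferase that was named for its ratio and is not on the list, fell 39.1-fold, from 440, 449 and 431 to 9.96, 10.4 and 13.4.

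Antigen presentation by MHC class I, which displays peptides from inside the cell and is induced by interferon, fell with them. Of 14 tested genes 13 fell and 1 rose (median -0.82), with the same counts without replicate 1 and with it alone. NLRC5, the transactivator of class I genes, fell 5.87-fold, from 379, 452 and 391 to 78.7, 58.4 and 71.2. PSMB9, an immunoproteasome subunit, fell 6.4-fold to 40.8, 35.5 and 49.5. HLA-B fell from 4325, 4234 and 4163 to 1668, 1900 and 1944, with WT at 1918, 1932 and 1837. PSMB10, also an immunoproteasome subunit, was the 1 rise, from 334, 310 and 277 to 585, 651 and 650. HLA class I genes are similar in sequence to one another, so reads may be shared among them. Among 14 NF-kB and inflammatory genes 8 fell and 3 rose, with 6 and 3 without replicate 1 and 5 and 1 with it alone. The cytokine LIF fell 1.94-fold, the NF-kB inhibitor NFKBIA 1.86-fold and NFKBIZ 2.69-fold, and RELA, the p65 subunit, rose 1.25-fold.

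The largest fall of all was RGS5, a regulator that shortens G protein signals. It had 10143, 9229 and 9227 normalized reads in GAS41-KO and 87.6, 57.4 and 66.1 in wt rescue, 135-fold lower (-5.64 ± 0.08 log2, adjusted p = 2.57e-17). WT had 94.5, 80.3 and 95.8 and mut rescue 1015, 868 and 952, so all 4 groups but WT and wt rescue were separate. SAT1, the rate-limiting enzyme of polyamine breakdown, was the most abundant of the 12 largest falls, at 25822, 24776 and 24813 in the knockout and 2252, 2493 and 2300 in the rescue. The rescue ended below WT (4068, 4003 and 4150, -0.76 log2, adjusted p = 2.54e-07), whereas mut rescue kept 13941, 12657 and 13462. NEBL, an actin-binding nebulin relative, fell 14.2-fold to 325, 267 and 242, and in mut rescue it stayed at 4208, 3699 and 4412, on both sides of the knockout's 4069, 3911 and 3833. JAG1, a Notch ligand, fell 9.7-fold to 516, 637 and 581, a level that overlaps that of WT. SESN3, a sestrin of the stress response, fell 23-fold to 79.7, 34.4 and 52.6, below the 176, 162 and 176 of WT. PRF1, which encodes perforin, a lytic protein of killer lymphocytes, fell 31-fold from 900, 867 and 939 to 24.9, 31.3 and 31. The leukocyte gene PTPRC was at 0 in wt rescue, and its level in GAS41-KO, where PRF1 was high, is not given here. The 9 blood and immune markers summed to 325 to 400 normalized reads in wt rescue against 229 to 253 in GAS41-KO, with 1 rise and 1 fall among the 2 tested. Their part in the fall of PRF1 was not tested.

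Falls outnumbered rises in the signalling lists, whose members differed widely and whose medians ran from -0.50 for BMP to -0.13 for Wnt. In the BMP pathway, in which secreted BMP ligands act through receptors and SMADs on ID genes, 15 of 18 tested genes fell and 1 rose (median -0.50), with 14 and 0 both without replicate 1 and with replicate 1 alone. The ligand BMP4 fell 3.18-fold, from 13477, 13899 and 13489 to 3831, 4558 and 4467, and stayed well over the 874, 861 and 861 of WT (2.12 log2, adjusted p = 1.63e-11). In mut rescue BMP4 was at 14100, 15649 and 13428, with no library far below the knockout. The target ID3 fell 3.43-fold to 662, 732 and 777, at the level of WT (694, 731 and 692). The target MSX1 fell 2.34-fold to 1220, 1390 and 1403 and stayed over the 1020, 974 and 1026 of WT (0.36 log2, limma adjusted p = 0.000767). So BMP4 and MSX1 stopped short of the unedited level while ID3 reached it. SMAD7, an inhibitor of the pathway, had the 1 rise (0.17 log2, adjusted p = 0.048), a call lost in 10 of the alternatives, among them each that leaves out a library.

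Wnt targets and feedback genes had 7 falls and 4 rises among 15 (median -0.13), and 8 and 4 without replicate 1. Quantile normalization gave 6 falls, 4 rises and a median of -0.08. With a median this small and a background of 33.0% each way, no direction is drawn for that list. AXIN2, a feedback inhibitor, fell 4.13-fold, from 950, 926 and 993 to 207, 238 and 249. The secreted inhibitor DKK1 fell 1.66-fold and the progenitor factor SOX9 1.77-fold. CCND1, cyclin D1, rose from 13848, 13345 and 13842 to 18052, 21079 and 20249, over all WT libraries (13261, 13094 and 13123). Among 25 ERK feedback and AP-1 genes 14 fell and 8 rose (median -0.29), with the same counts without replicate 1. The median was -0.24 without replicate 1, -0.26 with it alone and -0.17 after quantile normalization. The phosphatases that switch off ERK and its kin divided: DUSP6 fell 3.34-fold to 1655, 1923 and 1883 and DUSP4 fell 2.62-fold to 2349, 2712 and 2688, while DUSP5 rose 1.63-fold to 2432, 2911 and 2877. The ERK inhibitor SPRY4 fell 2.46-fold, and the AP-1 subunit FOSL1 rose 1.77-fold. DUSP5 and FOSL1 rose over all WT libraries (1642, 1603 and 1563 for DUSP5, and 1665, 1942 and 1762 for FOSL1). DUSP6 and SPRY4 fell below WT (2671, 2609 and 2553 for DUSP6, and 2563, 2417 and 2424 for SPRY4). The difference of DUSP4 from WT was not called (limma adjusted p = 0.0726).

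Semaphorins, plexins and ephrins, cell guidance ligands and their receptors, had 15 falls and 3 rises among 24 genes (median -0.27). The counts were 14 and 3 without replicate 1 and 15 and 1 with it alone. SEMA3A fell from 6189, 5709 and 5713 to 842, 473 and 503, a fall in which replicate 1 stood apart from the others and every rescue library still exceeded WT (335, 334 and 353). SEMA3B fell 8.61-fold, from 544, 580 and 517 to 59.8, 61.5 and 69.2. SEMA7A rose 2.54-fold to 610, 660 and 614, about 2.0-fold the level of WT (305, 322 and 302).

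**Figure D4:**
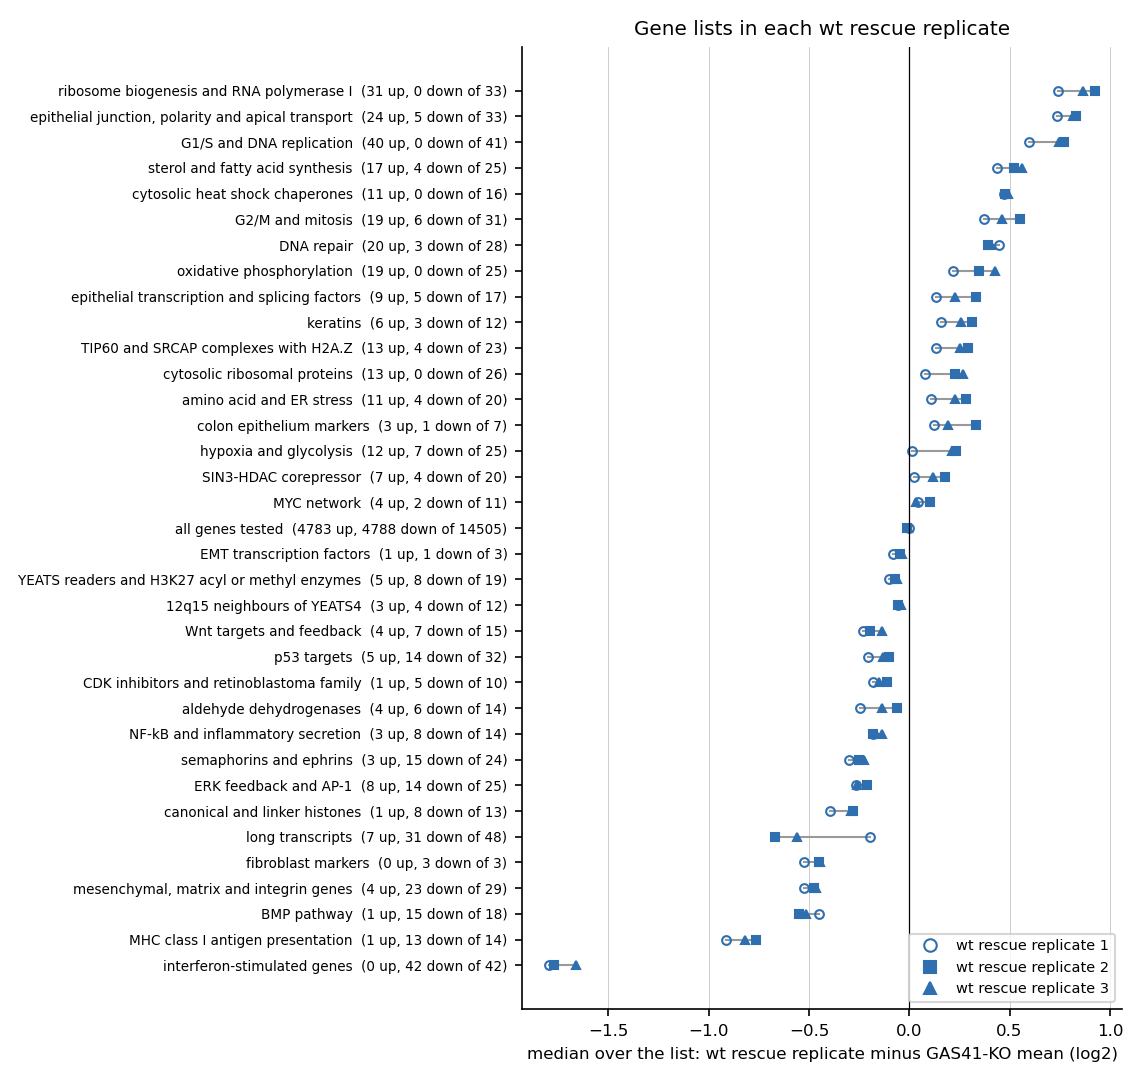
For each gene list with at least 3 tested genes, the median over its genes of wt rescue replicate 1 (open circle), 2 (square) and 3 (triangle) minus the GAS41-KO mean (log2), with counts of genes called up and down in brackets. The 3 replicates lie close together for interferon-stimulated genes (-1.79, -1.77 and -1.66) and apart for the list named long transcripts (-0.20, -0.67 and -0.56), whose lengths were not measured.

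Genes of growth rose together. Of 33 ribosome biogenesis and RNA polymerase I genes 31 rose and none fell (median 0.84), with 31 rises without replicate 1 and 33 with replicate 1 alone. Compared with WT, 26 of the 33 were higher in wt rescue and 0 lower (median 0.39 log2), where 50.1% of all tested genes differed in either direction. MRTO4, a ribosome assembly factor, rose 2.73-fold, from 1102, 1054 and 1078 to 2564, 3234 and 3040, past the 2016, 2143 and 2091 of WT (0.47 log2, adjusted p = 0.000241). NOLC1, a nucleolar chaperone, rose 2.23-fold from 8207, 8265 and 8283 to 16599, 19890 and 18648. Nucleolin, NCL, rose 1.74-fold to 45456, 49085 and 49456. For all 3 the groups did not overlap, and replicate 1 was the lowest of the rescue libraries. UTP20, whose window is printed above, went from 740, 717 and 781 to 1603, 1453 and 1486 (0.90 log2).

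MYC, the transcription factor that drives ribosome production, rose 2.01-fold, from 3572, 3645 and 3669 to 6531, 7833 and 7549 (0.98 ± 0.08 log2, adjusted p = 3.6e-08), to levels over those of WT (5716, 5814 and 5908, adjusted p = 0.00436). Its antagonist MXD4 fell 4.56-fold, from 1287, 1328 and 1265 to 254, 286 and 311, within reach of WT (239, 265 and 305), and MXD1 fell 2.19-fold. Of 11 genes of the MYC network 4 rose and 2 fell, with 4 and 3 both without replicate 1 and with it alone. The list's median was 0.04, and it fell below 0 with quantile normalization (-0.01) and with library totals (-0.11). Cytosolic ribosomal proteins changed little: 13 of 26 rose and none fell with a median of 0.21, yet with replicate 1 alone 3 rose and 1 fell, and quantile normalization gave 2 rises, 6 falls and a median of -0.06. No direction is therefore drawn for that list.

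DNA replication genes rose almost without exception, with 40 rises and no fall among 41 G1/S genes (median 0.70). The counts were 40 rises and 1 fall without replicate 1, and 39 rises and no fall with it alone. Most of the list went past WT: 27 of the 41 genes were higher in wt rescue than in WT and 0 lower (median 0.25 log2). Of all tested genes 50.1% differed from WT in either direction. PRIM1, the primase subunit, rose 2.19-fold, from 683, 657 and 646 to 1465, 1429 and 1462, the level of WT (1389, 1416 and 1502). The replication initiation factor MCM10 rose 1.94-fold to 2063, 2313 and 2208, and E2F2, an activator of these genes, rose 2.22-fold to 1040, 1217 and 1104. Mitotic and G2/M genes numbered 31, of which 19 rose and 6 fell (19 and 7 without replicate 1). CDC20, the activator of the anaphase-promoting complex, rose 2.09-fold, from 3690, 3638 and 3880 to 7175, 8350 and 7941, and cyclin A2, CCNA2, rose 1.88-fold to 3306, 3082 and 3217. The falls of this list depended on the library. CENPF, a large kinetochore protein, had 6912, 6518 and 6269 in the knockout and 6702, 2756 and 3175 in the rescue, and TOP2A, topoisomerase II alpha, 6330, 5896 and 5973 against 6278, 2844 and 3322. In both, replicate 1 lay inside the knockout's range and replicates 2 and 3 far below it. With replicate 1 alone the list had 23 rises and 1 fall.

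DNA repair genes had 20 rises and 3 falls among 28 (20 and 5 without replicate 1). FANCD2, a Fanconi anaemia protein, rose 2.02-fold, from 957, 948 and 928 to 1953, 1871 and 1896. The 3 falls were ATM, ATR and FANCM, and those of ATR and FANCM were lost under 6 and 5 of the alternatives. ATM, the kinase that senses DNA breaks, had 1308, 1412 and 1329 in the knockout and 869, 284 and 325 in the rescue, and ATR had 1281, 1283 and 1264 against 1416, 625 and 747. Replicate 1 of ATR was above the knockout, and with replicate 1 alone the list had 22 rises and 1 fall.

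Metabolic and chaperone lists differed in how far they moved. Of 25 nuclear genes of oxidative phosphorylation 19 rose and none fell (median 0.34), or 20 without replicate 1 and 13 with it alone. Quantile normalization gave 13 rises, 1 fall and a median of 0.19. Among them was NDUFA4, a respiratory chain subunit, up 1.96-fold to 2121, 2333 and 2578. In sterol and fatty acid synthesis 17 of 25 rose and 4 fell (median 0.49), with 18 and 3 without replicate 1 and 17 and 2 with it alone. The synthase FASN rose from 11486, 12643 and 12540 to 21487, 22003 and 22724, and INSIG1, which holds back the sterol sensor, rose 2.0-fold. Of 16 cytosolic heat shock chaperones 11 rose and none fell (median 0.47), with 11 rises without replicate 1 and 12 with it alone. Quantile normalization gave 11 rises, 2 falls and a median of 0.25. Among them was HSP90AB1, a constitutive HSP90, at 85043, 83369 and 86602 in the knockout and 133937, 163706 and 155902 in the rescue. SLC7A5, the transporter of large neutral amino acids, had the largest rise among amino acid and ER stress genes, from 5598, 6085 and 6247 to 17667, 20233 and 19812, 3.22-fold. That list had 11 rises and 4 falls of 20 (median 0.18), 12 and 4 without replicate 1 and 8 and 5 with it alone, and quantile normalization gave 9 rises and 6 falls with a median of 0.03. Hypoxia-induced and glycolytic genes gave 12 rises and 7 falls of 25, and their median changed sign with library totals (0.15, or -0.01). The counts were 13 and 7 without replicate 1 and 11 and 9 with it alone, with a median of 0.01 in the second. The glucose transporter SLC2A1 fell 3.0-fold to 1478, 1702 and 1704, while hexokinase HK2 rose 3.27-fold to 2044, 2555 and 2421 and the peptide hormone ADM rose 4.62-fold.

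The complexes that contain GAS41 changed modestly. Of 23 TIP60, SRCAP and H2A.Z genes 13 rose and 4 fell (median 0.22). The counts were 15 and 5 without replicate 1 and 11 and 3 with it alone (median 0.13), and the median was 0.05 after quantile normalization and 0.08 with library totals. RUVBL1, an ATPase of both complexes, rose 2.07-fold, from 2357, 2365 and 2389 to 4287, 5265 and 5161, and MRGBP rose 1.75-fold. BRD8, a bromodomain subunit of TIP60, fell 1.25-fold and EPC2 fell 1.35-fold, the second not with replicate 1 alone. For SIN3A and the HDACs, members of a corepressor, the changes were small: HDAC2 rose from 2620, 2500 and 2565 to 3362, 3095 and 3204 (0.31 log2, adjusted p = 0.000239), short of the 4638, 4444 and 4385 of WT. SIN3A rose by 0.22 log2 (adjusted p = 0.00812), a call lost with quantile normalization, with library totals and with replicate 1 alone. HDAC1 had 6757, 6348 and 6469 in the knockout and 5446, 6511 and 6408 in the rescue (-0.09 log2, adjusted p = 0.244). HDAC1 was called lower with replicate 1 alone (-0.25 log2, adjusted p = 0.0068), after quantile normalization and with library totals, and the adjusted p ranged from 9.16e-05 to 0.831 over the alternatives. The corepressor list had 7 rises and 4 falls of 20 (median 0.12), and 11 and 5 without replicate 1. The balance turned to 4 rises and 6 falls with replicate 1 alone and to 5 and 8 with library totals (median 0.02 in both), so no direction is drawn for it. Its members included BRMS1 (2.28-fold up) and ARID4A and ARID4B (3.12-fold and 2.4-fold down, with replicate 1 the highest of the rescue libraries in both). Among 19 YEATS readers and H3K27 acyl or methyl enzymes 5 rose and 8 fell, with 5 and 7 without replicate 1 and 4 and 7 with it alone. The median of these 19 was -0.06 log2 and their share of calls lies near the 66.0% of all tested genes, so no direction is drawn for them. The paralogous acetyltransferases went apart, KAT2A up 1.86-fold and KAT2B down 3.41-fold from 335, 280 and 297 to 92.6, 87.6 and 87.7, and the H3K27 methyltransferase EZH2 rose 1.32-fold.

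p53 targets were mixed, in cells with functional p53. CDKN1A, the gene of the cell cycle brake p21, had 4920, 5084 and 5056 normalized reads in GAS41-KO and 4512, 5064 and 4978 in wt rescue (-0.05 ± 0.07 log2, adjusted p = 0.541), both over the 3644, 3711 and 3804 of WT. MDM2, the ubiquitin ligase of p53, had 3168, 3072 and 3140 against 3322, 2952 and 3071 (-0.01 ± 0.10 log2, adjusted p = 0.957). CDKN1A was called lower after quantile normalization (-0.23 log2) and with library totals (-0.21 log2), with adjusted p from 0.00304 to 0.995 over the alternatives. Of 32 tested targets 14 fell and 5 rose, with 15 and 7 without replicate 1, 14 and 2 with it alone, and 21 and 2 with library totals. PLK2, a stress kinase, fell 3.15-fold from 4205, 4054 and 4126 to 1244, 1341 and 1350, still over the 518, 516 and 530 of WT. TP53INP1, an autophagy and apoptosis gene, fell 3.42-fold to 409, 398 and 396, and SESN1 fell 1.83-fold, while TRIAP1, an apoptosis inhibitor, rose 1.88-fold and the nuclease AEN 1.72-fold. Of 10 CDK inhibitor and retinoblastoma family genes 5 fell and 1 rose, with 5 and 0 without replicate 1 and 4 and 1 with it alone. Among them were CDKN2B (p15) down 2.57-fold to 83.7, 90.7 and 87.7 and RB1 down 1.66-fold to 1344, 1013 and 1060.

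Genes whose replicate 1 lay farthest above the other rescue libraries included ZBTB20, VPS13A, DST, KIF14 and BOD1L1. ZBTB20, a zinc finger repressor, had 2898 normalized reads in replicate 1 and 707 and 865 in replicates 2 and 3, with the knockout at 1381, 1388 and 1408. Replicate 1 was therefore over the knockout and beside WT (3006, 2529 and 2784), and the others were under the knockout, so the mean change of -0.16 (adjusted p = 0.672) describes none of the 3. DST, a giant cytoskeletal linker, had 4657 in replicate 1 and 1413 and 1758 in the others, all below the knockout's 9333, 9237 and 8741. VPS13A, a large lipid transfer protein, had 1690, 374 and 520 against 2313, 2400 and 2294. KIF14, a mitotic kinesin, had 1159 against 337 and 404. In WT the libraries lay close together, as for KIF14 at 1747, 1654 and 1639. In mut rescue, replicate 2 was the lowest of the 3 for each of these 5 (VPS13A 2277, 1570 and 2531). Across 14505 genes the difference of wt rescue replicate 1 from the mean of 2 and 3 went with the difference of mut rescue replicates 1 and 3 from replicate 2, with a correlation of 0.53, a description only, since genes share libraries.

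**Figure D5:**
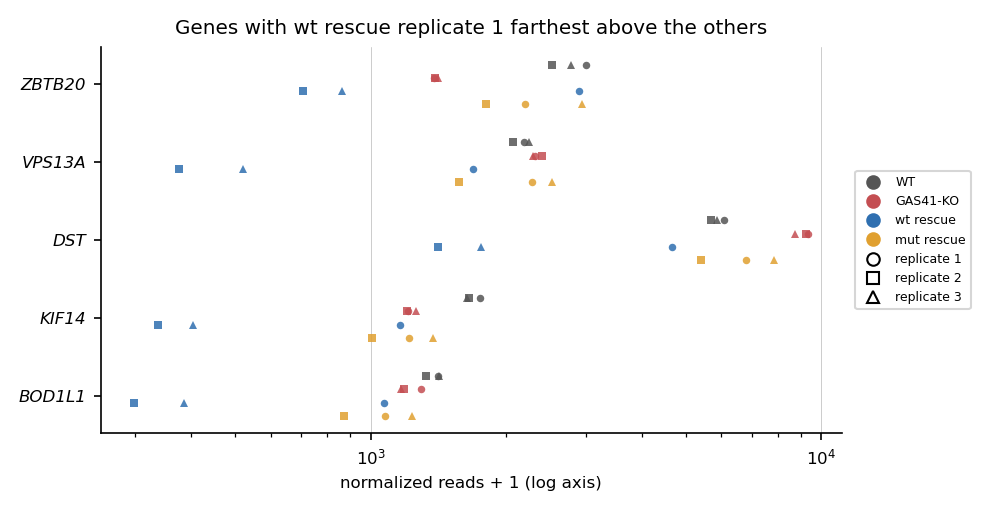
Normalized reads plus 1 (log axis) of 5 of the genes whose wt rescue replicate 1 lies farthest above replicates 2 and 3, 1 symbol per library. The blue circle of replicate 1 lies nearer to the symbols of the other groups (2898 for ZBTB20), while the blue square and triangle lie to the left (707 and 865).

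The 512 genes with replicate 1 at least 0.5 log2 above both others had a median gene span, introns included, of 81.3 kb over the 486 with a span in RefSeq, against 28.9 kb over 13283 tested genes. Genes that rose by 1 log2 or more had a median span of 20.3 kb and those that fell by that much 64.5 kb. A list of 48 genes taken to have long transcripts had 31 falls and 7 rises (median -0.45). It was written after the genes that lead the difference of replicate 1 had been seen and holds several of them, and transcript lengths were not measured here. Its median was -0.20 in replicate 1, -0.67 in replicate 2 and -0.56 in replicate 3, and mut rescue replicate 2 had a median difference of -0.14 from the other mut rescue libraries. The deposited table gives no measure of RNA quality, and the part of transcript length, RNA quality or handling in these values was not tested. The genes with replicate 1 farthest below the others differed far less: CSRP2BP had 299 in replicate 1 and 433 and 417 in the others, and HGSNAT, a lysosomal acetyltransferase, 219 against 328 and 316, below its knockout level of 742, 735 and 717 in every library. Replicate 1 was also the rescue library nearest to WT, with 348 genes at least 0.5 log2 from the WT mean, against 1973 in replicate 2 and 1464 in replicate 3.

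A set of 92 genes was called in opposite directions by replicate 1 alone and by replicates 2 and 3, and none of the 9571 genes called with all 3 libraries was called in the opposite direction by either. Replicate 1 lay outside the range of the 3 knockout libraries on the called side for 9196 of the 9571 genes, replicate 2 for 9519 and replicate 3 for 9541. The 9571 calls were made with replicate 1 included, and a gene whose replicate 1 opposes the others, such as ZBTB20, tends not to be called. The counts over these genes are therefore not an independent check of replicate 1. In the values given above by library, the epithelial rises and interferon falls were present in each rescue library. The falls of CENPF and ATR were present in replicates 2 and 3 but not in replicate 1. The call for ATR was also lost without replicate 2, without replicate 3 and in a fit of the 2 groups alone.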

How the data were processed

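Poly-A RNA of 12 HCT116 libraries (3 per group) was sequenced on a BGISEQ-500 instrument, per the labels' protocols. The authors' deposited table holds variance-stabilized log2 values per gene, with a lowest value of 6.288. Per the submitters' processing notes, the tools named, without role or order, include TopHat2 2.1.0, DESeq2, Trimmomatic 0.36, HTSeq, CASAVA 1.4 and Bowtie 1.0.1. The human build they name is hg19, and mm9 appears beside it. Inverting the transformation gave whole reads for 100% of values (tolerance 1e-06), from which depth, normalized reads and folds were computed. No fold is given where a library of the lower group had fewer than 10 reads.

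Genes with at least 10 reads in at least 3 libraries were tested on the deposited scale with limma 3.58.1 (trend, R 4.3.3, checked on simulated data) over all 4 groups, two-sided, with Benjamini-Hochberg adjustment over all 14505 genes and a threshold of 0.05. Comparisons with GAS41-KO, mut rescue and WT share the wt rescue libraries. Tables and figures used Python 3.11.15. Named genes were YEATS4, MYC, CDKN1A, MDM2, SIN3A, HDAC1 and HDAC2, the 12 largest changes each way, the 5 largest ratios each way, up to 3 genes each way per list, and up to 6 each way by the distance of wt rescue replicate 1, of which a few are not reported here. Members, lists and motifs were chosen with earlier results of these data known. Alternatives changed the filter, scaling, weights and libraries. Gene spans and promoters came from RefSeq tables.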

Additional observations from a re-analysis of the deposited data

How the results depend on the processing

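Calls between wt rescue and GAS41-KO numbered 9571, and between 8620 and 10138 when 1 library was left out. They numbered 9897 with no filter, 9285 with only those 2 groups, 9219 after quantile normalization, 9527 with voom and 11564 with estimated library weights (a gene-by-gene method, chosen after the data were seen because the default did not converge). The calls against mut rescue (8860) ranged from 7713 to 9518 and those against WT (7267) from 5585 to 8428 when 1 library was left out. With replicate 1 as the only wt rescue library the calls against WT fell to 2328. Scaling by library totals gave 3598 higher and 6101 lower against GAS41-KO, 3483 and 5396 against mut rescue (median of all genes -0.13) and 2140 and 4768 against WT (median -0.13). The number of genes with replicate 1 at least 0.5 log2 above both others was 512, and 1652 on a scale of log2 CPM, which changes both the compression of genes of few reads and the scaling, so their parts cannot be told apart.

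With replicate 1 alone the log2 change turned positive for ZBTB20 (0.98), CENPF (0.030), TOP2A (0.049), FANCM (0.059) and ATR (0.14), and negative for CSRP2BP (-0.24). Of the other values for named genes under an alternative, 2537 kept their direction and side of the threshold, 77 lost the call and 12 gained it.

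The replicate numbers were checked for pairing. Deviations from the group means of wt rescue and mut rescue correlated at 0.21, 0.48 and -0.39 for replicates 1, 2 and 3. Over all pairs of groups the correlations ran from 0.14 to 0.23 for replicate 1, from 0.004 to 0.48 for replicate 2 and from -0.39 to 0.09 for replicate 3. These values do not settle whether the numbers pair the samples, and the main fit assumes no pairing. With the replicate number as a block the calls were 9782 against GAS41-KO, 9081 against mut rescue and 7586 against WT. Genes of few reads are compressed on the deposited scale, and 3 libraries per group with 1 standing apart limit the precision.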

Other observations

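Aldehyde dehydrogenases, which oxidize aldehydes to acids, did not follow ALDH1A3: of 14 tested members 4 rose and 6 fell, with a median of -0.15 log2. The counts were the same without replicate 1 (median -0.10). Replication-dependent and linker histone genes fell more often than they rose, 8 against 1 of 13 tested (median -0.36), with 7 falls and no rise when replicate 1 was the only rescue library. Canonical histone messages mostly lack poly-A tails, and the libraries were made from poly-A RNA. Of 12 tested neighbours of YEATS4 at 12q15, 3 rose and 4 fell (median -0.07), with the same counts without replicate 1 (median -0.06). For the neighbours, replicate 1 stood a median of 0.11 log2 above the mean of replicates 2 and 3, against -0.05 over all genes. Of all tested genes 66.0% were called, so no result is read from the counts of the aldehyde dehydrogenases or of the neighbours.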
